A study of Homo sapiens with 9 samples.

Results

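The transcripts described here are those of 7 genes of the RAS-RAF-MEK-ERK cascade, the core of the mitogen-activated protein kinase (MAPK) pathway. They were taken by gene symbol from the 26485 genes measured in MDA-MB-231 cells, and each symbol was found once. HRAS and NRAS encode RAS GTPases. ARAF and BRAF encode RAF kinases, MAP2K1 and MAP2K2 encode the MEK1 and MEK2 kinases, and MAPK3 encodes ERK1. Other isoforms of these tiers are not described here.

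MDA-MB-231 is an established human cell line from a triple-negative breast cancer, with a mesenchymal appearance. RNA was sequenced in 9 libraries, 3 from cells stably expressing a nonspecific (NS) shRNA, 3 from cells with ASAH1 shRNA #1 and 3 from cells with ASAH1 shRNA #2. ASAH1 encodes acid ceramidase, the lysosomal enzyme that splits ceramide into sphingosine and a fatty acid. The study asked how loss of ASAH1 impairs growth of these cells. All groups carried a hairpin and were grown in the same medium with serum and antibiotics, with no other agent named. There was 1 NS hairpin, so both comparisons share the same 3 control libraries, and what a hairpin does besides lowering ASAH1 cannot be told apart from the knockdown in its own comparison. The replicates are called biological replicates, but nothing says whether the cells were derived separately, so p-values measure the spread between these libraries.

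The pathway works as a relay. Growth factor receptors recruit exchange factors that load RAS with GTP, and GTP-bound RAS brings RAF kinases to the plasma membrane. RAF phosphorylates MEK, MEK phosphorylates ERK, and ERK then phosphorylates cytosolic kinases and transcription factors that drive proliferation. The relay runs on protein activity, which RNA levels do not report: the values below are transcript levels only.

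Reads on genes ranged from 30989598 to 34867548 in the NS libraries, from 23806003 to 39791698 with shRNA #1 and from 35653318 to 49659106 with shRNA #2. ASAH1 itself fell with both hairpins, by 1.76 on the log2 scale with shRNA #1 and by 2.63 with shRNA #2 (limma adjusted p = 9.49e-09 and 5.42e-10). Vimentin (VIM), a marker of the labelled line, lay between 1174 and 2128 CPM (reads on the gene scaled to the total of the library), while the estrogen receptor gene ESR1 and the progesterone receptor gene PGR had at most 2 reads in any library. The summed level of 6 mesenchymal and basal markers ran from 5725 to 6085 CPM with NS shRNA, from 5524 to 5802 with shRNA #1 and from 4348 to 4714 with shRNA #2, all 6 being present. The summed level of 6 luminal markers ran from 412 to 465, from 236 to 274 and from 393 to 469. ESR1, PGR and FOXA1 had no more than 6 reads in any library. The keratin gene KRT18, at 205 to 418 CPM, made up most of the luminal sum. GATA3 and ELF3 were also present, with up to 1195 and 1527 reads. In a list of 6 immune, endothelial, fibroblast and liver markers the sum stayed between 16.5 and 28.5, with the leukocyte marker PTPRC at no more than 8 reads. The fibroblast marker COL1A1, at 14.6 to 26.9 CPM, made up most of that sum. These shifts in marker levels accompany the comparisons below, and their part in the results was not tested. In bulk RNA, fewer cells of a type and less RNA per cell cannot be told apart.

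BRAF, ARAF and MAPK3 were the 3 core genes whose calls with shRNA #1 and shRNA #2 had the same sign. The bases just upstream of their RefSeq start sites are shown because of that shared direction, a choice made with the values in view. They were read from the RefSeq promoter table on GRCh38.p14, the same build as hg38, and run 5′ to 3′ on the strand of the gene. Capitals mark GC boxes, searched as GGGCGG on both strands. The window of BRAF is chr7:140924269-140924518 on the minus strand. Its RefSeq start does not match the start of the canonical GENCODE transcript of BRAF. This window lies inside the GENCODE gene, without overlapping an exon. That of ARAF is chrX:47560955-47561204 on the plus strand, where an exon of an antisense noncoding gene overlaps it. That of MAPK3 is chr16:30123310-30123470 on the minus strand, with bases that belong to annotated MAPK3 exons left off. Its promoter sequence shares bases with the beginning of the canonical transcript, which does not place both starts at the same base. The stretch also lies inside the GENCODE gene, which extends to 30123506.
BRAF: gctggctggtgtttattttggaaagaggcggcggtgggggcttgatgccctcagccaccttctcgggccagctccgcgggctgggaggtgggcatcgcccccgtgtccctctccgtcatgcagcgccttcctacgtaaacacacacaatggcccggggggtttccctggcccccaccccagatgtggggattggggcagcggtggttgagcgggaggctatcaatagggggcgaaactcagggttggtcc
ARAF: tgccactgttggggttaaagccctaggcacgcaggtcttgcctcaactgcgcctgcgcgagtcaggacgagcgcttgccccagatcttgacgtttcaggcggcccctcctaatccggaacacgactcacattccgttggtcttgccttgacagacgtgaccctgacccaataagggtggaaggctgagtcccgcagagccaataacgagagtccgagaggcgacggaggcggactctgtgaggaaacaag
MAPK3: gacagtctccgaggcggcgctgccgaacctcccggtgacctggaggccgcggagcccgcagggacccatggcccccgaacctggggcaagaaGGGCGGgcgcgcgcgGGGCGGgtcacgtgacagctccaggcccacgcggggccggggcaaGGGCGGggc
The letters GGGCGG were not found in the 250 bases before the RefSeq start of BRAF or in those before the start of ARAF. For BRAF, the bases before the start of the canonical GENCODE transcript were not searched. They occurred 3 times in the 161 bases shown for MAPK3 and 6 times in its full 250 bases. Upstream of the other core genes, they were counted 3 times for HRAS, 2 times for NRAS, 3 times for MAP2K1 and 2 times for MAP2K2. The promoter sequences at these starts share bases with the beginning of the canonical GENCODE transcript, which does not place both starts at the same base. The HRAS window lies inside the GENCODE gene. The MAP2K1 gene begins at 66386837, inside its window of 66386662 to 66386911, and 2 of its 3 counts lie before that base. MAP2K1 and MAP2K2 each have another RefSeq start inside the gene, with 0 in its window. Of 35116 promoters of this length in the table, 42.6% held at least 1.

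In the comparisons below, a level is a normalized read count, the number of reads divided by the size factor of the library, and a change is a difference on the log2 (count + 1) scale fitted by limma. A gene was called when its adjusted p, corrected over all genes tested, was below 0.05. Size factors were set separately for each hairpin with the NS libraries, so the same NS libraries carry slightly different values in both comparisons. With shRNA #1, 1 of the 7 core genes was higher than with NS shRNA and 4 were lower, beside 32.8% of all 14341 genes tested being higher and 33.3% lower. With shRNA #2, 3 were higher and 2 lower, beside 33.5% and 33.4% of 14250 genes. Calls that were also over 1.5-fold numbered 1 with shRNA #1 (MAP2K2) and 3 with shRNA #2 (HRAS, BRAF and MAPK3), where 28.9% and 32.5% of all genes met that mark. The median change of the core genes was -0.32 with shRNA #1 and 0.14 with shRNA #2, and the median over all genes tested was 0.0013 and 0.013. Their median size of change, 0.32 and 0.40, was near that of all genes, 0.37 and 0.40. All 7 genes passed the filter on low counts.

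**Figure D1:**
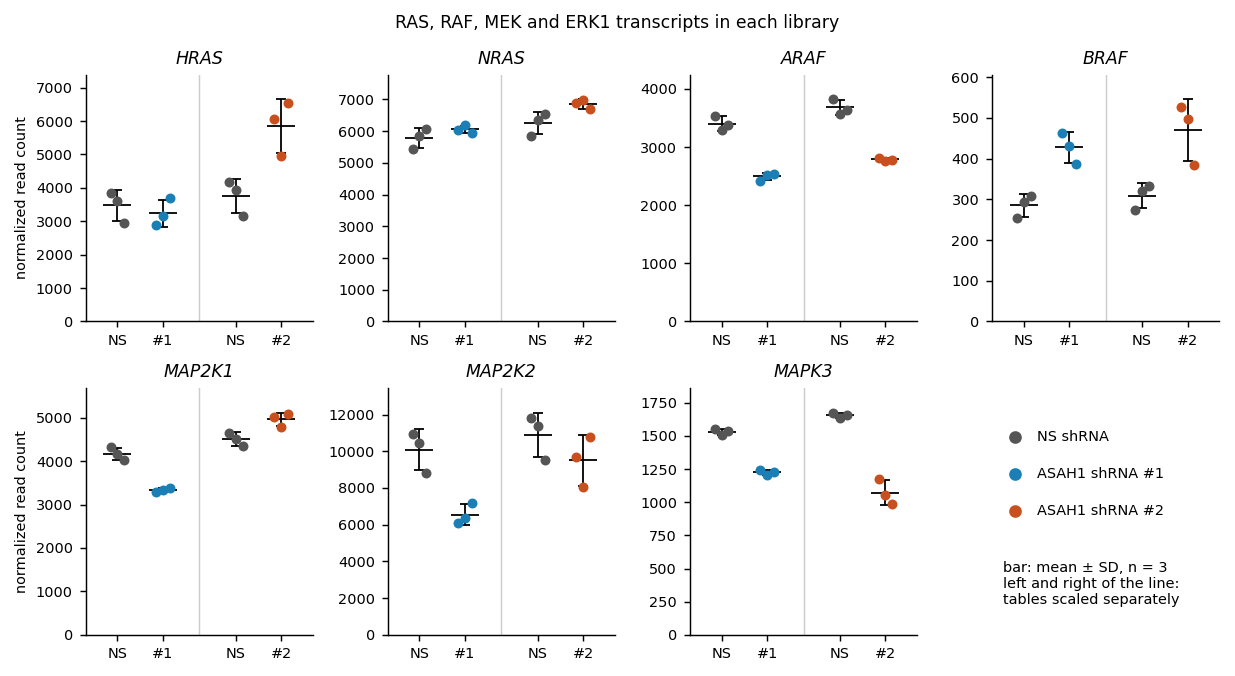
Normalized read count (y axis, from 0) of each core gene in each of the 9 libraries, with NS shRNA in grey, ASAH1 shRNA #1 in blue and ASAH1 shRNA #2 in orange; bars are the mean ± SD of 3 libraries. ARAF and MAPK3 sit below their NS libraries with both hairpins and BRAF above, whereas MAP2K1 lies below with shRNA #1 and above with shRNA #2.

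The RAS tier changed with shRNA #2 for HRAS, while NRAS did not pass the test with either hairpin. HRAS (chromosome 11, 532242 to 537321, minus strand, 6 exons) encodes a GTPase that is anchored to the plasma membrane by lipid groups. Its normalized read counts were 3861, 3615 and 2941 with NS shRNA and 2874, 3144 and 3689 with shRNA #1, and the groups overlapped. In the comparison with shRNA #2 they were 4166, 3925 and 3171 with NS shRNA and 6056.5, 4952 and 6527 with the hairpin, and every hairpin library was above every NS library. The means were 3754 ± 519 and 5845 ± 808 (SD, n = 3 each). HRAS rose by 0.64 with shRNA #2 (standard error 0.12, 95% interval 0.38 to 0.90, limma adjusted p = 6.16e-04), a fold of 1.56. With shRNA #1 the difference was -0.10 (95% interval -0.35 to 0.15, limma adjusted p = 0.453).

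HRAS was also among the core genes that varied most inside a group, with a coefficient of variation of 13.7% in NS shRNA, 12.8% with shRNA #1 and 13.8% with shRNA #2. Its transcript is rich in G and C (64.3%), and within groups its deviations followed the library's trend over GC content, which is described after the tiers. With that trend taken out of each library, the HRAS difference was 0.84 with shRNA #2 and 0.13 with shRNA #1, so the rise with shRNA #2 did not become smaller and the sign with shRNA #1 turned.

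NRAS (chromosome 1, 114704469 to 114716771, minus strand, 7 exons) is the closely related GTPase best known as an oncogene in melanoma and leukemia. It had 5430, 5851 and 6066 normalized reads with NS shRNA and 6040, 6187 and 5951 with shRNA #1. In the other comparison it had 5859, 6351 and 6540 with NS shRNA and 6888, 6991 and 6697 with shRNA #2. The groups overlapped with shRNA #1 and did not overlap with shRNA #2. The difference was 0.069 with shRNA #1 (95% interval -0.047 to 0.19, limma adjusted p = 0.264) and 0.14 with shRNA #2 (0.0093 to 0.26, limma adjusted p = 0.0557). NRAS passed the threshold with shRNA #2 when NS replicate 3 was left out (0.17, limma adjusted p = 0.0309), and with the GC trend removed its difference was -0.050.

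The RAF tier changed with both hairpins, and its 2 genes moved in opposite directions. ARAF (chromosome X, 47561205 to 47571908, plus strand, 16 exons) encodes the RAF kinase with the lowest basal activity toward MEK. Its normalized read counts were 3544, 3295.5 and 3379 with NS shRNA and 2422, 2517 and 2545 with shRNA #1. In the comparison with shRNA #2 they were 3824, 3577 and 3643 with NS shRNA and 2818.5, 2768 and 2784 with the hairpin. No hairpin library reached the lowest NS library in either comparison. ARAF fell by 0.45 with shRNA #1 (standard error 0.05, limma adjusted p = 3.69e-05) and by 0.40 with shRNA #2 (standard error 0.05, limma adjusted p = 7.66e-05). The level decreased by 26.7% with shRNA #1 and decreased by 24.2% with shRNA #2. With the GC trend removed, the differences were -0.33 and -0.23.

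BRAF (chromosome 7, 140719327 to 140924929, minus strand, 18 exons) encodes the RAF kinase with the highest basal activity, and is a frequent oncogene in melanoma. It was the core gene with the fewest reads, between 243 and 334 per library with NS shRNA. Its normalized read counts were 254, 294 and 308 with NS shRNA and 464, 431 and 387 with shRNA #1. In the comparison with shRNA #2 they were 274, 320 and 332 with NS shRNA and 527, 499 and 383 with the hairpin. Every hairpin library was above every NS library, although replicate 3 of shRNA #2 stood closer to the NS libraries than to the other two of its group. BRAF rose by 0.58 with shRNA #1 (standard error 0.10, 95% interval 0.35 to 0.81, limma adjusted p = 7.46e-04) and by 0.59 with shRNA #2 (standard error 0.13, 95% interval 0.31 to 0.88, limma adjusted p = 0.00204). The folds were 1.4955 and 1.51, on either side of the 1.5-fold mark. With the GC trend removed, the differences were 0.52 and 0.48. BRAF and MAP2K1 have processed pseudogenes elsewhere in the genome, so reads that align equally well to a copy would not have been counted, and both levels are uncertain to that extent. Whether copies affect the levels of the other core genes was not examined.

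The MEK tier differed between the hairpins. MAP2K1 (chromosome 15, 66386837 to 66491656, plus strand, 11 exons) encodes MEK1, which phosphorylates ERK on a threonine and a tyrosine. Its normalized read counts were 4317, 4159 and 4030 with NS shRNA and 3295, 3327 and 3383 with shRNA #1, with no overlap. In the comparison with shRNA #2 they were 4658, 4515 and 4345 with NS shRNA and 5019, 4795 and 5088 with the hairpin, again with no overlap but on the other side. MAP2K1 fell by 0.32 with shRNA #1 (standard error 0.05, limma adjusted p = 2.16e-04). It rose by 0.14 with shRNA #2 (standard error 0.05, 95% interval 0.020 to 0.26, limma adjusted p = 0.0400), a fold of 1.10. That small rise lost its call without NS replicate 2 (0.14, limma adjusted p = 0.101), without NS replicate 3 (0.11, 0.122), without shRNA #2 replicate 1 (0.13, 0.118) and without shRNA #2 replicate 3 (0.12, 0.114). When the libraries were rescaled to their upper quartile instead, the median over all genes moved to -0.077 and the MAP2K1 rise was 0.051 (limma adjusted p = 0.432).

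MAP2K2 (chromosome 19, 4090321 to 4124122, minus strand, 11 exons) encodes MEK2, the second ERK kinase, and had the highest read counts of the core genes. They were 10939, 10463 and 8808 with NS shRNA and 6073, 6377 and 7176 with shRNA #1, with every hairpin library below every NS library. In the comparison with shRNA #2 they were 11803, 11358 and 9497 with NS shRNA and 9699, 8041 and 10798 with the hairpin, and the groups overlapped. MAP2K2 fell by 0.62 with shRNA #1 (standard error 0.09, 95% interval -0.82 to -0.42, limma adjusted p = 1.80e-04), and its level decreased by 34.9%. With shRNA #2 the difference was -0.20 (95% interval -0.44 to 0.041, limma adjusted p = 0.128). It reached the threshold without NS replicate 3 (-0.29, limma adjusted p = 0.0170) and without shRNA #2 replicate 3 (-0.30, 0.0210). MAP2K2 is the core transcript richest in G and C (65.4%). With the GC trend removed, the difference was -0.37 with shRNA #1 and 0.0037 with shRNA #2.

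The ERK tier is represented by MAPK3, which fell with both hairpins. MAPK3 (chromosome 16, 30114105 to 30123506, minus strand, 9 exons) encodes ERK1, one of the pair of kinases that carry the signal to the nucleus. Its normalized read counts were 1554, 1508 and 1536 with NS shRNA and 1244, 1203 and 1229 with shRNA #1. In the comparison with shRNA #2 they were 1677, 1637 and 1656.5 with NS shRNA and 1172, 1056 and 987 with the hairpin. The groups stood well apart in both comparisons, and the NS libraries differed among themselves by a coefficient of variation of 1.51% and 1.20%. MAPK3 fell by 0.32 with shRNA #1 (standard error 0.05, limma adjusted p = 3.61e-04) and by 0.63 with shRNA #2 (standard error 0.07, limma adjusted p = 2.64e-05). Its level decreased by 20.1% and decreased by 35.4%, respectively. With the GC trend removed, the differences were -0.16 (limma adjusted p = 0.0224) and -0.44.

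**Figure D2:**
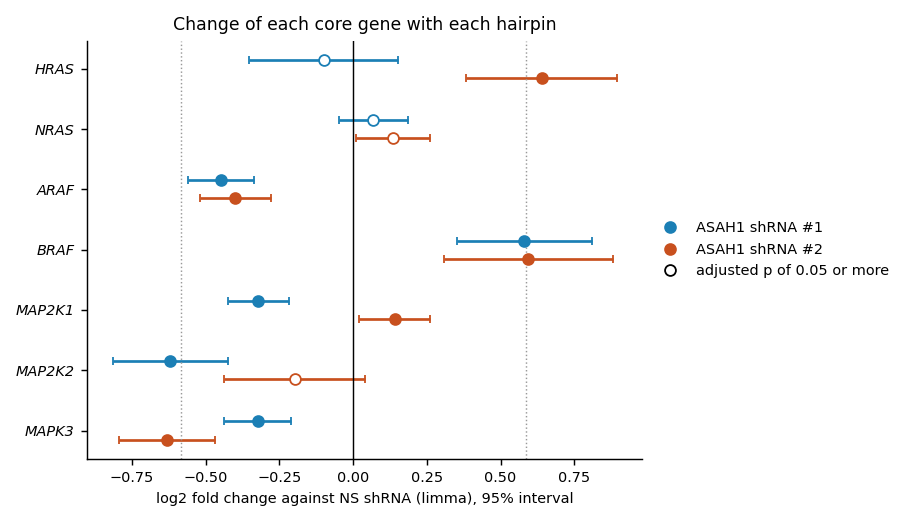
Log2 fold change of each core gene against NS shRNA (x axis) with its 95% interval from limma, for ASAH1 shRNA #1 (blue) and #2 (orange); open circles have an adjusted p of 0.05 or more and dotted lines mark 1.5-fold. ARAF, BRAF and MAPK3 lie on the same side of 0 with both hairpins, and MAP2K1 lies at -0.32 with shRNA #1 and 0.14 with shRNA #2.

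Comparing the hairpins with each other asks where a change depended on the hairpin. In edgeR's quasi-likelihood test on the reads of all 9 libraries, 3 core genes were higher with shRNA #2 than with shRNA #1 and 1 was lower, beside 31.4% and 32.5% of all 14381 genes tested. HRAS was higher by 0.73 (edgeR adjusted p = 3.69e-04), MAP2K1 by 0.45 (8.64e-06) and MAP2K2 by 0.41 (0.00608). MAPK3 was lower by 0.32 with shRNA #2 (log2 difference -0.32, edgeR adjusted p = 0.00103). The hairpins were not shown to differ in NRAS (0.054, edgeR adjusted p = 0.346), BRAF (0.0084, 0.955) or ARAF (0.036, 0.520). ASAH1 was itself lower with shRNA #2 than with shRNA #1 (-0.89). With only these hairpins, the depth of the knockdown and other properties of a hairpin cannot be told apart.

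Because the 2 genes of a tier were read in the same library, their ratio does not depend on the size factor, although it does depend on the library's trend over GC content where the 2 transcripts differ in GC. The ratio of ARAF to BRAF, on the log2 scale, was 3.80, 3.48 and 3.45 in the NS libraries, 2.38, 2.54 and 2.71 with shRNA #1 and 2.42, 2.47 and 2.86 with shRNA #2. It therefore lay lower in every hairpin library than in any NS library. The mean difference was -1.03 with shRNA #1 and -0.99 with shRNA #2, which leaves the ratio at 0.490 and 0.502 of its NS value. The two-sided exact permutation p was 0.1 for each, the smallest that 3 libraries against 3 allow, and 0.15 after adjustment over the 6 ratio tests. Removing the GC trend gave differences of -0.85 and -0.70, and the groups again did not overlap.

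For MAP2K2 to MAP2K1, the log2 ratio was 1.34, 1.33 and 1.13 with NS shRNA, 0.88, 0.94 and 1.08 with shRNA #1 and 0.95, 0.75 and 1.09 with shRNA #2. The hairpin libraries were again all below the NS libraries, by 0.30 and 0.34 on average (differences of -0.30 and -0.34, exact p = 0.1 and adjusted p = 0.15 for each). The closest pair was NS replicate 3 at 1.13 and replicate 3 of shRNA #2 at 1.09. With the GC trend removed, the difference was -0.032 with shRNA #1, where the groups overlapped (exact p = 0.3), and -0.15 with shRNA #2, where they did not. The ratio of HRAS to NRAS overlapped between groups in both comparisons. Its mean was -0.74 with NS shRNA, -0.91 with shRNA #1 (difference -0.17, exact p = 0.5, adjusted 0.50) and -0.24 with shRNA #2 (difference 0.50, exact p = 0.2, adjusted 0.24). With shRNA #1 the HRAS to NRAS difference ran from -0.32 without NS replicate 3 to -0.043 without NS replicate 1. After removal of the GC trend it was 0.13 with shRNA #1, with overlap, and 0.89 with shRNA #2, without overlap. These ratios are of read counts, so their level also carries the lengths of both transcripts, whereas the differences between groups do not.

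**Figure D3:**
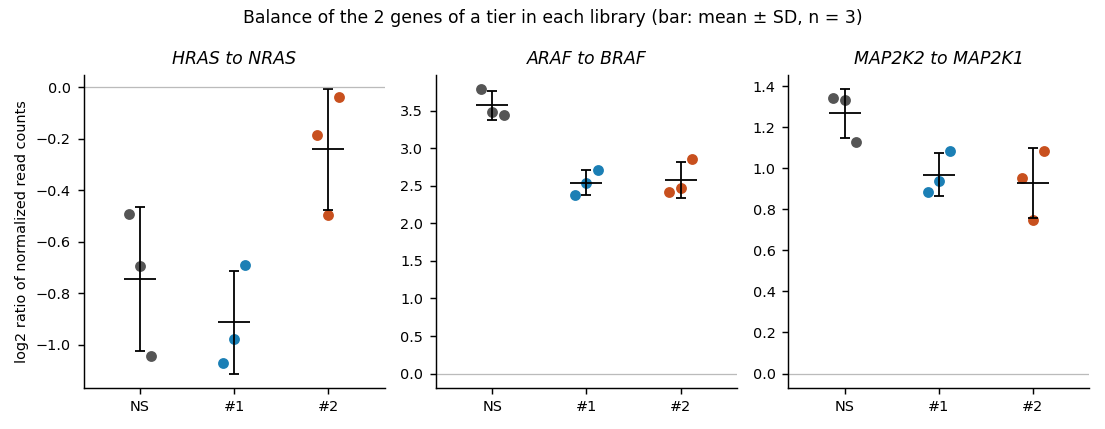
Log2 ratio of the normalized read counts of the 2 genes of a tier (y axis) in each library, with bars at the mean ± SD of 3 libraries. The ARAF to BRAF ratio averaged 3.58 with NS shRNA against 2.55 and 2.58 with the hairpins, with no overlap, while the HRAS to NRAS ratio overlapped between groups.

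To compare levels between genes, CPM values were divided by the length of the canonical transcript in kilobases, and the tiers then differed widely. With NS shRNA, MAP2K2 stood at 180 ± 19.4 (SD, n = 3), HRAS at 100.4 ± 13.4, MAP2K1 at 50.6 ± 1.56, ARAF at 44.3 ± 1.54, NRAS at 41.4 ± 2.46, MAPK3 at 26.5 ± 0.374 and BRAF at 1.37 ± 0.139. ARAF (42.9 to 45.9) and NRAS (38.7 to 43.6) overlapped, and the other neighbours in this order did not. With shRNA #1, MAP2K2 (119 ± 10.1) and HRAS (94.7, from 84.4 to 107.8) still led and NRAS (43.9) came ahead of MAP2K1 (41.0) and ARAF (32.9). With shRNA #2, MAP2K2 (144 ± 20.1) and HRAS (142 ± 18.8) overlapped, and MAPK3 was at 15.6 ± 1.36. BRAF remained the lowest in every group, at 2.07 ± 0.192 with shRNA #1 and 1.90 ± 0.313 with shRNA #2. These levels assume that the cells use the canonical transcript, and long isoforms or untranslated regions that are not used would lower the value per kilobase.

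The libraries differed in a trend of their reads over GC content, and several core genes moved with it. Within groups, the slope over the canonical transcript's GC content ran from -0.054 to 0.044 (log2 per 10 points of GC). The correlation between a gene's deviation from its group mean and this slope over the 9 libraries was 0.990 for HRAS, 0.973 for MAP2K2, 0.962 for MAP2K1, 0.565 for ARAF, -0.036 for MAPK3, -0.714 for BRAF and -0.810 for NRAS. These are descriptions: each point is 1 library, and the slope and the deviation come from the same reads. HRAS (64.3%) and MAP2K2 (65.4%) have high GC content, but MAPK3 (61.0%) is nearly as high and did not move with the slope. MAP2K1, at a lower 51.2%, did move with it. With the GC trend removed, the MAP2K1 differences were -0.34 with shRNA #1 and 0.15 with shRNA #2, near those without removal. NRAS (37.4%) and BRAF (41.1%) are low in GC. Measured from the mean of all libraries, the slope lay between 0.030 and 0.126 in the NS libraries, between -0.054 and 0.017 with shRNA #1 and between -0.112 and -0.022 with shRNA #2, so it also moved with the groups. The cause of the slopes was not tested.

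**Figure D4:**
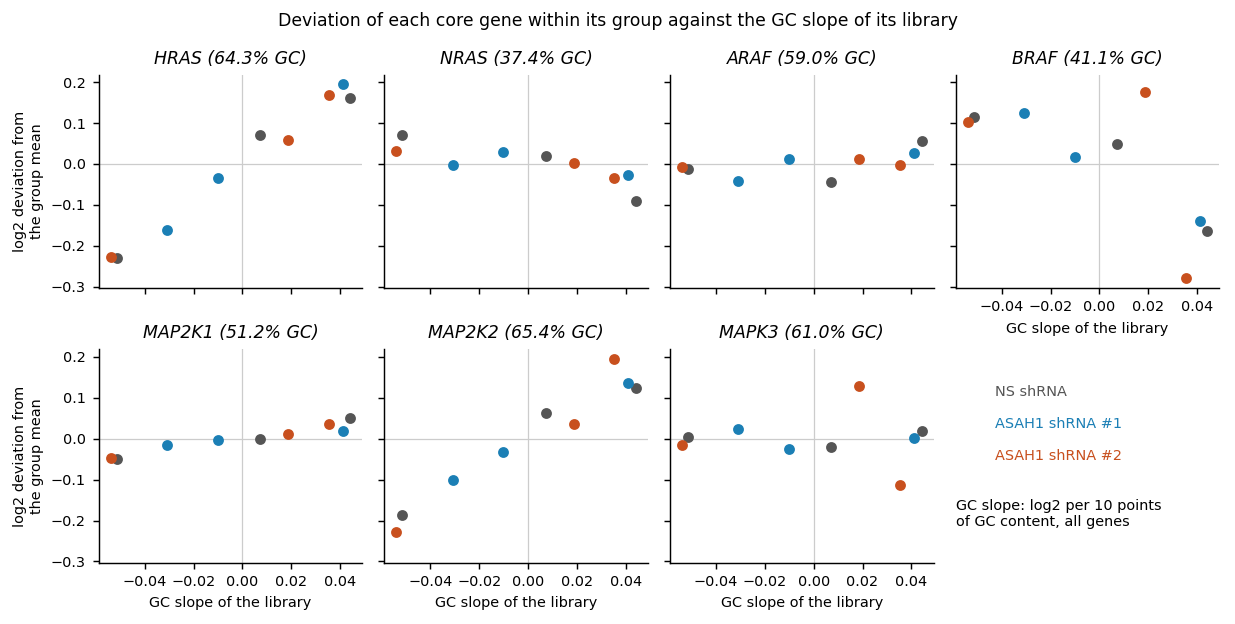
Log2 deviation of each core gene from its group mean (y axis) against the slope of the library over GC content (x axis, log2 per 10 points of GC), 1 point per library and coloured by group. HRAS and MAP2K2 rise along the slope (r = 0.990 and 0.973 over 9 libraries) and MAPK3 does not (r = -0.036).

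Around the core, 66 genes in 7 lists act on RAS, RAF, MEK or ERK or belong to neighbouring MAP kinase modules, and 60 had enough reads to be tested. With shRNA #1, 25 were higher, 14 lower and 21 not called, with a median change of 0.055. With shRNA #2, 26 were higher, 15 lower and 19 not called, with a median of 0.11. The shares over all genes were 32.8% and 33.3% with shRNA #1 and 33.5% and 33.4% with shRNA #2. The lists are described by these counts and were not tested as sets.

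Among 8 RAS activators and receptor adaptors, 3 were higher and 2 lower with shRNA #1, and 4 were higher and 1 lower with shRNA #2. PTPN11, the phosphatase SHP2 that acts between receptors and RAS, had a change of -0.17 with shRNA #1 and 0.74 with shRNA #2. GRB2, the adaptor that carries the exchange factor SOS to receptors, had 0.022 (not called) and 0.42. The 7 GTPase-activating proteins, which return RAS to its GDP-bound state, held 3 that rose and 2 that fell with each hairpin. NF1, which encodes neurofibromin, rose by 0.78 and 0.92, from 1183 ± 222 to 2024 ± 241 normalized reads (SD, n = 3) with shRNA #1 (limma adjusted p = 5.24e-04 and, with shRNA #2, 1.68e-04). RASAL2 rose by 0.74 and 0.56, and DAB2IP fell by 0.45 and by 0.22.

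RAS proteins reach membranes through farnesylation, carboxymethylation and palmitoylation. Of 6 tested genes of these steps, 3 were higher and 1 lower with shRNA #1, and 1 was higher with shRNA #2. The carboxyl methyltransferase gene ICMT had -0.46 with shRNA #1 and 0.11 (not called) with shRNA #2, and the palmitoyltransferase gene ZDHHC9 rose by 0.24 and 0.32. Of 11 scaffolds and regulators of RAF and MEK, 5 were higher and 2 lower with shRNA #1, and 4 higher and 3 lower with shRNA #2. The chaperone gene HSP90AA1, whose product stabilizes RAF kinases, had -0.38 with shRNA #1 and 0.51 with shRNA #2, and its homolog HSP90AB1 rose by 0.37 and 0.67. Of 8 RAS-related GTPases, 3 and 4 were higher and 1 and 2 lower. RALA, a GTPase of the exocyst arm downstream of RAS, rose by 0.83 and 0.50, and RHEB, the activator of mTORC1, was not called (-0.090 and -0.019).

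Of the 7 kinases that ERK activates, 5 rose and 1 fell with shRNA #1 (median 0.22), and 6 rose and 1 fell with shRNA #2 (median 0.60). Over all genes tested, 32.8% and 33.5% were higher and 33.3% and 33.4% lower. With shRNA #2, 4 of the 7 rose over 1.5-fold, beside 32.5% of all genes past that mark in either direction. The list was chosen with earlier results known and was not tested as a set. The genes that rose lay between 0.21 and 0.61 with shRNA #1 and between 0.46 and 0.66 with shRNA #2. RPS6KA3, which encodes the ribosomal S6 kinase RSK2, was at -0.00053 (not called) with shRNA #1 and rose by 0.64 with shRNA #2. RPS6KA5, which encodes the nuclear kinase MSK1, rose by 0.61 and 0.65. RPS6KA4, which encodes MSK2, was the gene that fell, by 0.29 and by 0.21.

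Of 13 other MAP kinases and MAP kinase kinases, which include those of the JNK, p38 and ERK5 modules and the atypical MAP kinase gene MAPK6, 3 were higher and 5 lower with shRNA #1, and 4 higher and 6 lower with shRNA #2. MAP2K3, a kinase of p38, rose by 0.44 and 0.65. MAPK11, which encodes p38 beta, fell by 0.87 and by 1.04. MAPK14, which encodes p38 alpha, had -0.19 (called) and 0.12 (not called). The largest fall in this list was that of MAP2K6, another p38 kinase, from 26.6 normalized reads with NS shRNA to 1.62 with shRNA #1, and from 28.8 to 9.32 with shRNA #2, which are few reads for a fold.

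**Figure D5:**
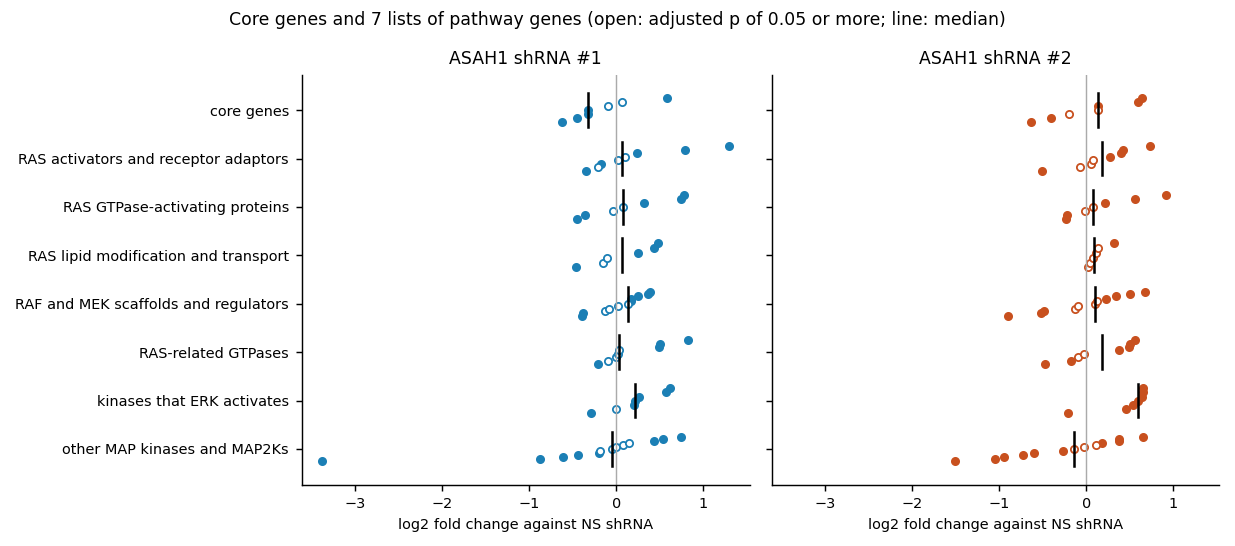
Log2 fold change against NS shRNA (x axis) of the 7 core genes and of the tested genes of 7 pathway lists, for ASAH1 shRNA #1 (left) and #2 (right); filled circles have a limma adjusted p below 0.05 and the line is the median of the list. The kinases that ERK activates have medians of 0.22 and 0.60, the core genes -0.32 and 0.14, and all genes tested 0.0013 and 0.013.

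The gene whose level was most like each core gene over the 9 libraries was found among 11624 genes with a mean of at least 100 reads, by Pearson correlation of log2 CPM after TMM scaling. It was EIF3B for HRAS (r = 0.994), ZFP28 for NRAS (0.980), WHSC1L1 for BRAF (0.979), SLC27A1 for ARAF (0.995), TMEM158 for MAP2K1 (0.999), DUT for MAP2K2 (0.998) and WNT7B for MAPK3 (0.988). Correlations over 0.95 were common, with 383 genes for ARAF, 327 for MAP2K1, 285 for MAPK3, 156 for HRAS, 148 for MAP2K2 and 66 for BRAF, but only 8 for NRAS. The 9 points share their libraries and fall into 3 groups, and these values are given as descriptions.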

How the data were processed

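RNA from 9 MDA-MB-231 libraries (3 groups of 3) was analysed. Per the labels and the study's methods, mRNA was selected with oligo-dT, although the series text names ribosomal RNA depletion, and libraries were stranded. The authors used Trimmomatic 0.36 for trimming and STAR 2.7.1a for alignment to hg38, counted UCSC genes with htseq-count and scaled the counts with DESeq2 1.28, separately for each hairpin with NS shRNA. Another methods paragraph names Bowtie2, RSEM and edgeR. The deposited values are a normalized signal, the read count divided by a size factor, for 26485 genes. The authors' own means, fold changes, standard errors, statistics and p-values in these tables were not used. 28 symbols that had become dates were restored from the other table, and 0 per-sample columns were left unmatched.

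Whole reads were recovered from every deposited signal (within 0.01 of a whole read). R 4.3.3 was used with limma 3.58.1 (log2(value + 1), intensity trend, mean of at least 10, two-sided, Benjamini-Hochberg at 0.05, within each table), edgeR 4.0.16 (quasi-likelihood, TMM, all 9 libraries) and DESeq2 1.42.0 (alternative only), and the figures were drawn in Python 3.11.15 with matplotlib 3.10.9. The fits of a hairpin against NS shRNA were checked on simulated counts with few planted changes and no GC trend. That check covers neither the GC trends and many calls of these data nor the fit of all 9 libraries. Recovered reads set the precision: BRAF had at least 243 reads in each NS library. Ratios within a tier were compared by two-sided exact permutation tests. Positions, lengths and GC content come from GENCODE v44 on hg38, where 87.4% of the symbols matched and GC content was known for 91.4% of genes tested. Alternatives were other pseudocounts, filters, scalings and tools, a joint fit, a replicate block and leaving out each library, with removal of a lowess trend over GC content added after the data had been seen. Named besides the core genes and ASAH1 were, in each pathway list, the 2 tested genes with most reads and those over 1.5-fold with both hairpins in the same direction. The core genes and lists were chosen with earlier results of these data known.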

Additional observations from a re-analysis of the deposited data

Results flagged for a closer look

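The level of 4 of the 7 core genes differed between the hairpins in edgeR's quasi-likelihood test of shRNA #2 against shRNA #1, a direct test of the difference on the reads of all 9 libraries. HRAS was higher with shRNA #2 by 0.73 on the log2 scale (edgeR adjusted p = 3.69e-04), having risen against NS shRNA with shRNA #2 and not been called with shRNA #1. MAP2K1 was higher by 0.45 (8.64e-06), and it is the core gene called in opposite directions by the 2 hairpins in the main fits. Its call against NS shRNA with shRNA #2 was marginal (limma adjusted p = 0.0400). That call was lost in 9 alternative fits, counting those with 1 library left out. MAP2K2 was higher by 0.41 (edgeR adjusted p = 0.00608), having fallen with shRNA #1 and not been called with shRNA #2. MAPK3 had a difference of -0.32 (0.00103), having fallen with both. In this test between the hairpins, the direction and the call of each of the 4 held under all 5 other settings. They also held when each of the 9 libraries was left out in turn. The share of all genes that differed in the same test was 31.4% higher and 32.5% lower, so a difference between the hairpins was common in these libraries.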

How the results depend on the processing

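Of the 21 changes of core genes (7 in each of 3 comparisons), 14 kept their direction and call under every alternative run. The rise of MAP2K1 with shRNA #2 was not called with no filter (0.14, limma adjusted p = 0.0524), limma without the trend (0.14, 0.0700), upper quartile rescaling (0.051, 0.432) or DESeq2 (0.14, DESeq2 adjusted p = 0.0519), and it ran from 0.11 to 0.17 with 1 library left out. For MAP2K2 with shRNA #2, the difference was called with upper quartile rescaling (-0.29, 0.0386), ran from -0.30 to -0.083 with 1 library left out, and turned to 0.0037 (0.964) without the GC trend. For NRAS with shRNA #2, it was called in 1 limma fit of all 9 libraries (0.13, 0.0285), ran from 0.089 to 0.17 with 1 library left out, and turned to -0.050 without the GC trend. HRAS with shRNA #1 turned to 0.13 without the GC trend. Between the hairpins, uncalled differences changed sign: with upper quartile normalization NRAS went to -0.022, BRAF to -0.067 and ARAF to -0.039, without the GC trend NRAS went to -0.051 and BRAF to -0.039, and BRAF ran from -0.079 to 0.14 with 1 library left out. The cause of these shifts was not tested. The number of core genes called stayed at 1 higher and 4 lower with shRNA #1, and ran from 2 to 4 higher and from 2 to 3 lower with shRNA #2. Without the GC trend, the difference in the HRAS to NRAS ratio turned to 0.13 with shRNA #1 and was 0.89 with shRNA #2, that of ARAF to BRAF was -0.85 and -0.70, and that of MAP2K2 to MAP2K1 was -0.032 and -0.15. With no pseudocount and with 1 library left out, all 6 ratio differences kept their sign.

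Same-numbered libraries of different groups had correlations of their deviations from -0.304 to 0.201, with 1 of 9 pairs over 0.1. Every such pair of an NS and a hairpin library was negative. Between the hairpins, same-numbered pairs were at 0.053, 0.093 and 0.201, above the different-numbered pairs (-0.127 to 0.050). The numbers were not taken as pairing. With the replicate number as a block, MAP2K1 with shRNA #2 was at 0.14 (limma adjusted p = 0.152), and no other core gene changed its call.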
